A study of Mus musculus with 4 samples.

Results

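The 10 genes described here encode carriers of the SLC5 and SLC16 families and the membrane glycoproteins that accompany some of them. Most of these carriers move monocarboxylates, which are small acids such as lactate, pyruvate, butyrate and ketone bodies. Slc16a10 and Slc16a5 are known for other substrates. All 10 genes were taken by name from the 55487 genes listed. Slc5a8 was picked because it was higher with the miR-181a-5p mimic in these same libraries, so its values are a description and carry no test. The other 9 genes (Slc5a12, Slc16a1, Slc16a3, Slc16a7, Slc16a10, Slc16a5, Slc16a6, Bsg and Emb) were taken for their function, with earlier results of these data known. All 10 were among the 17155 genes with enough counts to be tested.

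Mouse small intestinal (SI) organoids, epithelial cultures grown from crypts in IntestiCult medium, were transduced with lentivirus that carried a miRNA mimic control (NCLMIR002, 2 libraries, numbered 1 and 2) or the mimic of miR-181a-5p (MLMIR0085, 2 libraries, numbered 3 and 4). Both groups were selected with 2 μg/ml of puromycin. Total RNA was sequenced, and the comparison asks which transcripts differ when miR-181a-5p is overexpressed. For the mice whose crypts gave these organoids, the sources used here state neither genotype, strain nor age, nor whether replicates were transduced separately, so p-values measure only the spread between these libraries, which may be technical.

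Monocarboxylates cross the membrane of intestinal epithelial cells by 2 routes. The SMCT carriers of the SLC5 family take them up together with sodium at the luminal surface. Carriers of the SLC16 family such as MCT1, MCT2 and MCT4 move them together with protons in either direction along their gradient. Butyrate made by bacteria is a main fuel of colonic epithelium and enters through such carriers, whereas lactate made in glycolysis leaves through them. MCT1 and MCT4 depend on the glycoprotein basigin to reach the membrane, and MCT2 is accompanied by embigin.

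The libraries held between 31104884 and 38111731 expected counts (read counts per gene as estimated by RSEM), and TMM factors lay between 0.98 and 1.01. Of the genes tested, 612 passed an adjusted p of 0.05 in the quasi-likelihood test of edgeR (p adjusted by Benjamini-Hochberg), which gave every adjusted p below unless another test is named. Higher with the mimic were 220 genes (1.28%) and lower were 392 (2.29%), and the median log2 fold change of all genes was -0.01. An exact permutation test of 1 gene in 2 against 2 libraries cannot go below p = 0.333. The level of miR-181a-5p itself was not analysed here.

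The mature sequence of miR-181a-5p (RefSeq, GRCm38.p6, chr1:137966468-137966490 and chr2:38852741-38852763, both on the plus strand) is shown with its seed, bases 2 to 8, in capitals. It is followed by the matches to this seed in the 10 genes. These 23-base windows of the transcripts are written 5′ to 3′ with the match in capitals, to show which transcripts hold the letters that a miR-181 seed pairs with.
miR-181a-5p: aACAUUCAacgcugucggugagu
Slc16a7, 3′ UTR: tcacatttTGAATGTccttttcc
Slc5a8, coding sequence: agataccgTGAATGTgatccctg
Emb, coding sequence: gaacttgaTGAATGTgacttgga

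The letters searched were TGAATGT, the complement of the seed, on the transcript strand alone, in the longest 3′ UTR and the longest coding sequence of each gene in GENCODE M21 (GRCm38). Of the 10 genes, 1 held a match in its 3′ UTR. This was Slc16a7, whose 3′ UTR of 8742 bases has it at base 5253 (chr10:125222745-125222767, minus strand). Among 12913 tested genes with a 3′ UTR, 19.1% held at least 1 match, and among those whose 3′ UTR had 5000 bases or more the share was 62.3%. Slc5a8 held 1 match in its coding sequence of 1836 bases (chr10:88906353-88906375, plus strand) and Emb 1 in its 993 bases (chr13:117249363-117249385, plus strand), and 12.7% of the coding sequences of 13099 tested genes held 1. None of the 3 matches was followed by the A that makes an 8-base site. The other 9 genes had no match in these 3′ UTR windows, including Slc16a6, the gene that fell. A match is only a description of the letters.

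Slc5a8 encodes SMCT1, the sodium-coupled carrier of butyrate, lactate, pyruvate and nicotinate, known from the apical membrane of distal intestine and kidney tubules. The gene lies at chr10:88885992-88929515 on the plus strand. It had 5 and 3 expected counts in mimic control replicates 1 and 2, and 207 and 554 counts in miR-181a-5p mimic replicates 3 and 4. Both control libraries were at the edge of detection and both mimic libraries were well above it, with mimic replicate 4 the highest. In TPM, a level per transcript length that can be compared between genes, the values were 0.03 and 0.02 in the controls against 1.5 and 3.85 in the mimic libraries. The fitted log2 fold change was 6.55 with an SE of 0.64. The summed counts scaled to library size gave a ratio of 98.6, with a 95% exact binomial interval from 49.8 to 229 that covers counting error only. Neither the SE nor this interval allows for the choice of the gene for its rise in these libraries, so neither serves as a test. On the log2(TPM + 1) scale, which understates changes of low genes, the difference was 1.76. In bulk RNA, more cells with the transcript and more transcript per cell cannot be told apart.

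The promoters of Slc5a8, the least abundant carrier in the controls, and of Slc16a1, an abundant one, are printed to show how they differ in CG dinucleotides, which are in capitals. Each runs from 250 bases before to 50 bases after the start that RefSeq gives (GRCm38.p6, both on the plus strand, chr10:88885742-88886041 for Slc5a8 and chr3:104638414-104638713 for Slc16a1).
Slc5a8: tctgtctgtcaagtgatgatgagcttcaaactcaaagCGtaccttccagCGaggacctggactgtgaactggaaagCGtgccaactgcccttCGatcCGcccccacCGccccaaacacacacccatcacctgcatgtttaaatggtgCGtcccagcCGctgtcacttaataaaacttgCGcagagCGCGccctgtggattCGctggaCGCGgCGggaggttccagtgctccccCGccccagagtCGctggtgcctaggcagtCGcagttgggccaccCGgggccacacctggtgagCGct
Slc16a1: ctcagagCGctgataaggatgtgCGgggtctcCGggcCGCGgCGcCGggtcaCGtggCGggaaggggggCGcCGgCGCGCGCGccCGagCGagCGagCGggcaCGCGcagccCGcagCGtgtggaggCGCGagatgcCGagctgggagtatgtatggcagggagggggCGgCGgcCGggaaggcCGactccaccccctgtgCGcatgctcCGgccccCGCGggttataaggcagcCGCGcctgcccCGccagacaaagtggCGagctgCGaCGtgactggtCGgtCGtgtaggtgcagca

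The Slc5a8 window held 20 CG dinucleotides and 60.7% G and C. The Slc16a1 window held 42 and 73.7%. Over 32851 mouse promoters of the same length the median was 7 CG, with 73.5% of them below the Slc5a8 count and 97.0% below the Slc16a1 count. Of the 10 genes, 5 matched the promoter table, and the others with an entry were Slc16a3 with 36 CG, Slc16a10 with 26 and Emb with 14. The palindrome CACGTG was in the Slc16a1 window, was not in the other 4, and was in 7.2% of all promoters. No DNA methylation or factor binding was analysed here.

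Apart from Slc5a8, 1 of 9 genes rose with the mimic (Slc16a7) and 1 fell (Slc16a6), beside 1.28% and 2.29% of all genes tested. The other 7 did not pass. Slc16a7 passed the filter on low counts only with the help of its mimic libraries, so its call is given as a description. With at least 10 counts asked of every library it was not tested, and 0 of the 7 genes then tested were called higher. At an unadjusted p under 0.05 there were 4 of the 9, beside 4250 of all genes (24.8%). With a fold change of at least 2 asked as well, as the study did, Slc16a7 remained, beside 0.589% of all genes higher. Slc16a6 did not reach 2-fold, and 1.47% of all genes were called lower by that rule. The normalized CPM (counts scaled to TMM-corrected library size) of the groups did not overlap for 5 of the 9 genes, 2 higher and 3 lower, beside 58.4% of all genes. The median log2 fold change of the 9 was 0.12.

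**Figure D1:**
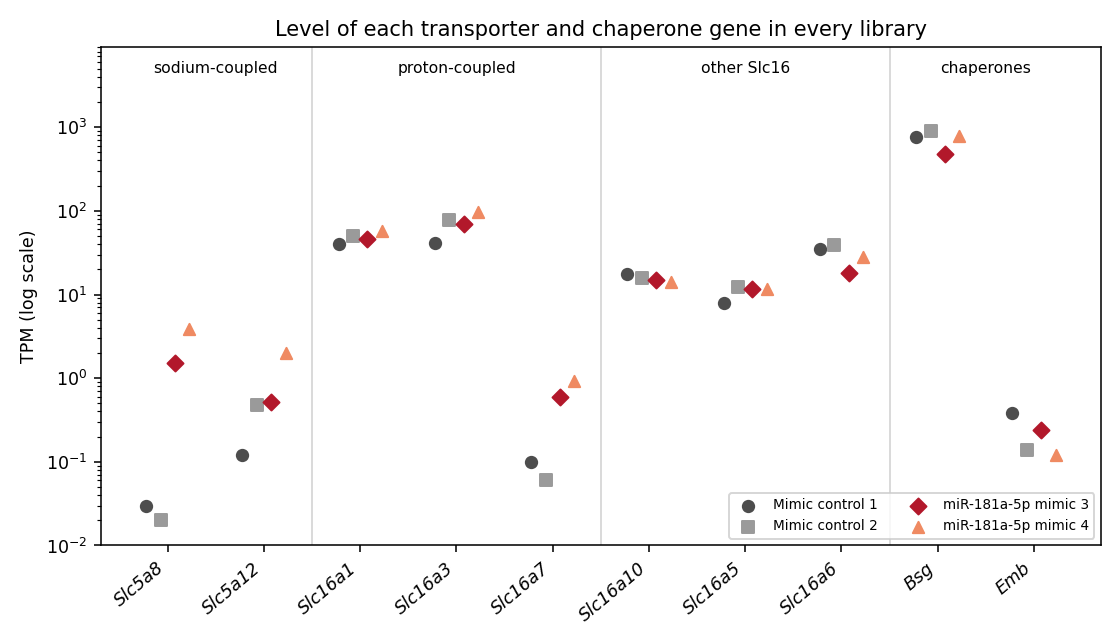
TPM of each gene in each of the 4 libraries, on a log axis, with points for mimic control replicates 1 and 2 and miR-181a-5p mimic replicates 3 and 4 and the genes grouped by role. Bsg lies between 481 and 905 TPM in every library, Slc16a1 and Slc16a3 between 40.6 and 98.2, and Slc5a8 moves from 0.02 and 0.03 in the controls to 1.5 and 3.85 with the mimic.

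By TPM the controls were led by Bsg (774 and 905), followed by Slc16a3 (40.8 and 78.1) and Slc16a1 (40.6 and 50.6), whose ranges overlapped. Below them came Slc16a6, Slc16a10 and Slc16a5, each apart from its neighbour. Slc5a12, Emb, Slc16a7 and Slc5a8 lay under 0.5 TPM, with the ranges of Slc5a12 and Emb overlapping and Slc5a8 lowest. With the mimic the upper 6 ranks were held by the same genes in the same order. Slc5a8 was seventh there, with a range that overlapped that of Slc5a12, whose range in turn overlapped that of Slc16a7, and Emb was last. In all, 5 of the 10 genes had at least 10 TPM in every library and 4 had less than 4 TPM in every library.

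Slc5a12 encodes SMCT2, a sodium-coupled carrier of lower affinity known from proximal small intestine and kidney, and lies at chr2:110597298-110647779. It had 13 and 34 counts in the controls against 47 and 115 in the mimic libraries. In normalized CPM these were 0.34 and 1.10 against 1.5 and 3.23, so the groups did not overlap, although control replicate 2 and mimic replicate 3 were close. The log2 fold change was 1.79 (SE 0.56, 95% interval 0.50 to 3.09), with an adjusted p of 0.112, and did not pass. Without control replicate 2 it was 2.81 and without mimic replicate 3 it was 2.23. Without control replicate 1 it was 1.12, and without mimic replicate 4 it was also 1.12. The exact test of edgeR gave an adjusted p of 0.0498. DESeq2 gave 0.0703 and the older (legacy) form of the quasi-likelihood test 0.124. Without a filter on low counts, the quasi-likelihood test gave 0.195 and limma on log2(TPM + 1) gave 0.516.

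Slc16a1 encodes MCT1, the most widely expressed proton-coupled carrier of lactate, pyruvate and butyrate, at chr3:104638668-104658462. Its counts were 5715 and 5687 in the controls against 5319 and 6900 in the mimic libraries. In TPM the values were 40.6 and 50.6 against 46.6 and 58.0, and the 2 groups overlapped. The log2 fold change was 0.13 (SE 0.13, 95% interval -0.17 to 0.43, adjusted p 0.563), and it was -0.020 without control replicate 1. The interval includes no change and leaves out a doubling.

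Slc16a3 encodes MCT4, a carrier of high capacity known for lactate export from glycolytic cells, at chr11:120948480-120960868. It had 2725 and 4209 counts in the controls against 3484 and 5483 in the mimic libraries. Control replicate 1 was the lowest and mimic replicate 4 the highest, and control replicate 2 lay above mimic replicate 3. The log2 fold change of 0.36 (SE 0.28, 95% interval -0.30 to 1.02, adjusted p 0.464) rested on which control was used. It was 0.91 without control replicate 2 (adjusted p 0.0107) and -0.040 without control replicate 1 (adjusted p 0.923).

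Slc16a7 encodes MCT2, the proton-coupled carrier with the highest affinity for pyruvate and lactate, best known from neurons and testis. It lies at chr10:125219270-125389465 on the minus strand. Its counts were 12 and 4 in the controls against 53 and 78 in the mimic libraries, and its TPM 0.1 and 0.06 against 0.6 and 0.92. Every mimic library was above every control library. Slc16a7 rose by a log2 fold change of 3.06 (SE 0.44, 95% interval 2.05 to 4.08, adjusted p 0.0168), which is 8.37-fold. It passed the filter on low counts only with the help of its mimic libraries, the group where it was high. Its control libraries alone held too few counts for that filter, so its adjusted p is given as a description. The ratio of summed counts was 8.48, with a 95% exact binomial interval for counting error of 5.03 to 15.3. Its level stayed below that of Slc16a1 and Slc16a3 in every library. Leaving out any 1 library gave log2 fold changes from 2.63 to 3.87, with adjusted p between 0.00500 and 0.0124. On log2(TPM + 1) without a filter, where limma was used, the difference was 0.70 and the adjusted p 0.314, and with at least 10 counts asked of every library the gene was not tested.

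**Figure D2:**
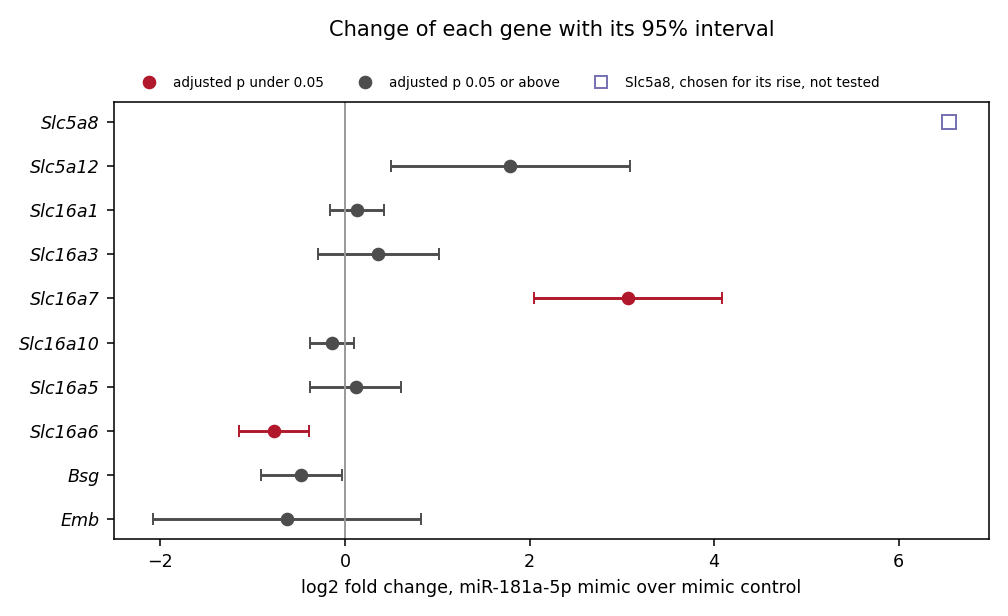
Log2 fold change of each gene, miR-181a-5p mimic over mimic control, with 95% intervals from edgeR's quasi-likelihood test. The intervals of Slc16a7 (2.05 to 4.08) and Slc16a6 (-1.15 to -0.39) belong to the 2 genes that passed an adjusted p of 0.05. Slc16a7 passed the filter on low counts only with the help of its mimic libraries. Slc5a8, chosen for its rise, is drawn as an open square at 6.55 with no interval.

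Slc16a10 encodes TAT1, a carrier of aromatic amino acids at the basolateral membrane of intestinal epithelium, at chr10:40033532-40142258. It had 2306 and 1930 counts in the controls against 1834 and 1863 in the mimic libraries. In normalized CPM the groups did not overlap (60.1 and 62.3 against 58.6 and 52.3). The log2 fold change was -0.14 (SE 0.10, 95% interval -0.38 to 0.10, adjusted p 0.428) and did not pass.

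Slc16a5 encodes MCT6, which is known to carry some drugs and lies at chr11:115462474-115474398. Its counts were 467 and 599 in the controls against 534 and 605 in the mimic libraries. The mimic libraries had nearly the same TPM (11.55 and 11.56) and lay between the controls (7.9 and 12.4). The log2 fold change was 0.12 (SE 0.21, 95% interval -0.38 to 0.61, adjusted p 0.771), and it was -0.19 without control replicate 1. The opposite-strand gene Gm11695 shares 104 exonic bases with it.

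Slc16a6 encodes MCT7, linked to the export of ketone bodies from liver cells, and lies at chr11:109450855-109473598 on the minus strand. It had 3296 and 2875 counts in the controls against 1355 and 2190 in the mimic libraries. In TPM the values were 35.0 and 39.0 against 18.01 and 28.11, so both mimic libraries were below both controls, and mimic replicate 3 was the lowest. Slc16a6 fell by 0.77 on the log2 scale (SE 0.16, 95% interval -1.15 to -0.39, adjusted p 0.0496), a level 1.70-fold higher in the controls. The call sits at the threshold. The adjusted p was 0.0523 with the legacy form of the test, 0.0508 with RLE factors and 0.123 without mimic replicate 3, and 0.000838 with edgeR's exact test.

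Slc16a6 shares 1052 of its 4883 exonic bases with Amz2 and 48 with Arsg, both on the opposite strand, and the sources do not say whether the counting used strand. If it did not, reads of the shared stretches cannot be told apart. Amz2 had 2095 and 1623 counts in the controls against 1256 and 1667 in the mimic libraries (log2 fold change -0.30, adjusted p 0.162). Before rounding, the counts of Amz2 were not whole either. Arsg, which encodes a lysosomal sulfatase, had 604 and 413 against 167 and 265 and fell by 1.18 on the log2 scale (SE 0.20, adjusted p 0.0291). Both were named here for their position, after their values were seen.

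Bsg encodes basigin (CD147), the chaperone of MCT1 and MCT4, and lies at chr10:79704491-79711969. It had 29052 and 27143 counts in the controls against 14736 and 25088 in the mimic libraries. In normalized CPM the controls had 758 and 876 and the mimic libraries 471 and 705, so the groups did not overlap and mimic replicate 3 was lowest. The log2 fold change was -0.47 (SE 0.19, 95% interval -0.91 to -0.04, adjusted p 0.176) and did not pass. Without mimic replicate 4 it was -0.79 with an adjusted p of 0.0453, and without mimic replicate 3 it was -0.21 with an adjusted p of 0.718. Emb, which encodes embigin, lies at chr13:117208536-117274415. It was near the limit of measurement, with 35 and 9 counts in the controls against 17.5 and 9.05 in the mimic libraries. The groups overlapped and the log2 fold change was -0.63 (SE 0.62, 95% interval -2.08 to 0.83, adjusted p 0.567). Without control replicate 1, the highest library for this gene, it was 0.47.

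Summed over MCT1, MCT4 and MCT2, the proton-coupled carriers had 81.5 and 129 TPM in the controls against 116 and 157 TPM in the mimic libraries, so the groups overlapped. The sodium-coupled carriers SMCT1 and SMCT2 together had 0.15 and 0.50 TPM in the controls against 2.02 and 5.83 in the mimic libraries. Their share of the carrier TPM was 0.184% and 0.387% against 1.71% and 3.58%. This share includes Slc5a8, chosen for its rise, and is a description. Within the proton-coupled carriers, Slc16a3 held 50.1% and 60.6% in the controls against 59.3% and 62.5% in the mimic libraries. The TPM of Bsg divided by that of the proton-coupled carriers was 9.50 and 7.03 in the controls against 4.15 and 5.04 in the mimic libraries. The mimic libraries had the lower ratios, and this ratio was formed after its parts were seen and was not tested.

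**Figure D3:**
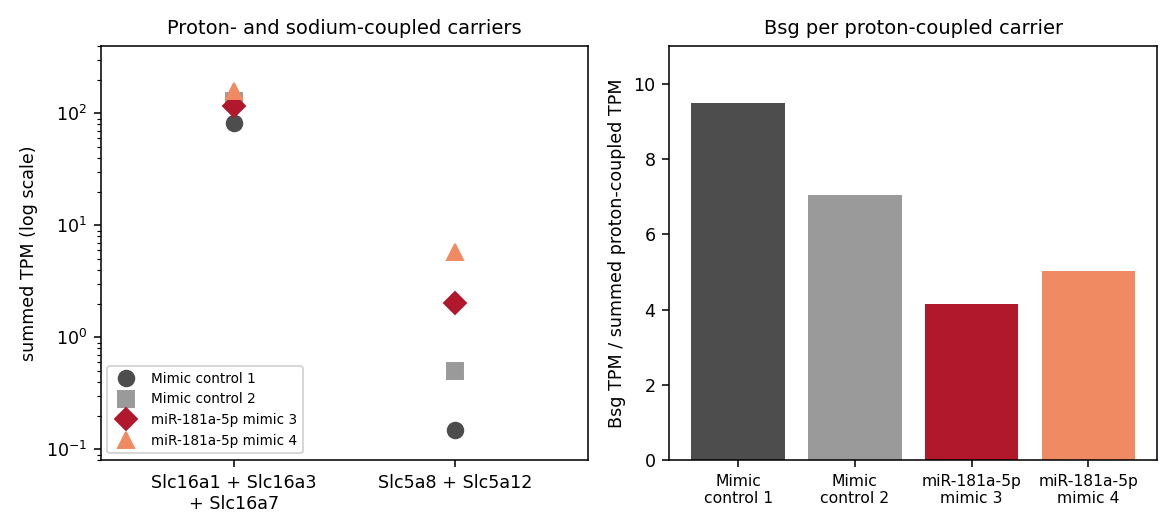
Left, summed TPM on a log axis of the proton-coupled carriers (Slc16a1, Slc16a3 and Slc16a7) and of the sodium-coupled carriers (Slc5a8 and Slc5a12) in each of the 4 libraries. Right, bars of the TPM of Bsg over the summed proton-coupled TPM, from 9.50 and 7.03 in the controls to 4.15 and 5.04 with the mimic.

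Genes that handle the same substrates were taken as 6 lists with 63 genes, of which 54 were tested. Of these, 1 rose (Oxct1), 1 fell (Slc26a6) and 52 did not pass, so 3.70% were called beside 3.57% of all genes. The median log2 fold change was 0.05, and the groups did not overlap for 57.4% of them beside 58.4% of all genes. An unadjusted p under 0.05 was found for 14 of the 54, beside 24.8% of all genes.

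Short-chain fatty acid and ketone enzymes had 14 genes tested, with a median log2 fold change of 0.08. Oxct1, the enzyme that readies ketone bodies for oxidation, had 33.5 and 36.9 TPM against 51.2 and 57.0. It rose by a log2 fold change of 0.64 (SE 0.11, adjusted p 0.0288). The other enzymes of this list ranged up to a log2 fold change of 1.23, and 11 of the 14 had groups that did not overlap, beside 58.4% of all genes.

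Among other short-chain fatty acid carriers and receptors, 6 of 10 genes were tested, with a median log2 fold change of 0.18. Slc26a6, an anion exchanger of the apical membrane, had 62.5 and 75.7 TPM in the controls against 46.3 and 47.8 in the mimic libraries. It fell by 0.66 on the log2 scale (SE 0.13, adjusted p 0.0403). The receptor genes Ffar3, Hcar1, Hcar2 and Olfr78 had too few counts to be tested.

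The other 4 lists held no gene past the threshold in edgeR's quasi-likelihood test. Over all genes, edgeR's exact test called 10.4%, and DESeq2 called 9.21% of the 14105 genes to which it gave an adjusted p. The other Slc16 family had 6 genes tested, log2 fold changes from -0.50 to 0.13 and a median of 0.05. At an unadjusted p under 0.05 it held 0 genes, and 0 were called by edgeR's exact test or by DESeq2. The other Slc5 family, mostly sodium-coupled sugar and vitamin carriers, had 8 genes tested and a median of 0.15. Here 3 had an unadjusted p under 0.05 and 1 was called by the exact test and 1 by DESeq2. Its largest value was that of Slc5a4b, named after its value was seen, with 0.47 and 0.68 TPM against 3.67 and 1.55 and a log2 fold change of 2.15 (adjusted p 0.0537).

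Ion gradients and scaffolds, which hold the sodium pump and the sodium-proton exchangers, had 10 genes tested and a median of 0.05. Of these, 2 had an unadjusted p under 0.05, and the exact test and DESeq2 called 1 each. Over all genes the shares were 24.8% at an unadjusted p under 0.05, 10.4% in the exact test and 9.21% in DESeq2. Lactate and pyruvate enzymes had 10 genes tested and a median of -0.03, with 2 at an unadjusted p under 0.05 and 2 called by each of the exact test and DESeq2. Their range ran from -1.78, the value of Ldhb (1.41 and 2.20 TPM against 0.67 and 0.69, adjusted p 0.0591), to 0.46, that of Ldha (839 and 1353 TPM against 1418 and 1777, adjusted p 0.236). Both lactate dehydrogenase genes were named after their values were seen.

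**Figure D4:**
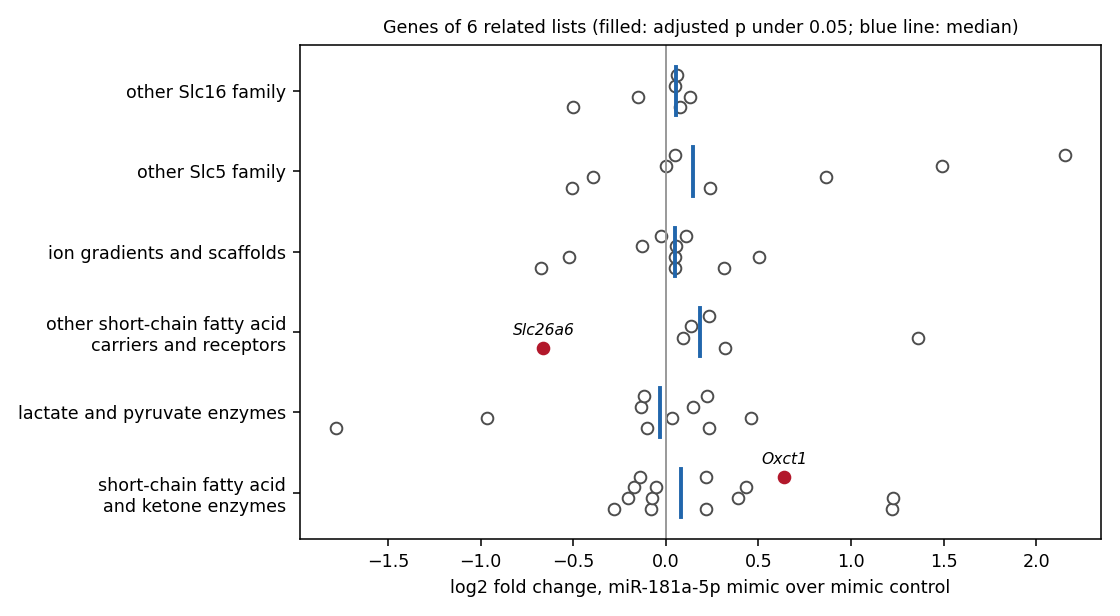
Log2 fold change (miR-181a-5p mimic over mimic control) of the 54 tested genes of 6 related lists, 1 point per gene, filled where the adjusted p was under 0.05, with a blue line at each list's median. Slc26a6 (-0.66) and Oxct1 (0.64) are the filled points, and the medians lie between -0.03 and 0.18.

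The labelled tissue was checked with marker lists. Epithelial markers (Epcam, Cdh1, Krt8 and Krt18) summed to 1613 to 1962 TPM in every library. Mesenchymal markers summed to 4.46 and 2.76 TPM in the controls against 4.52 and 7.45 in the mimic libraries, with Col1a2, Col3a1, Dcn and Lum, 4 of 9, at 0 in every library. Immune markers summed to 0.52 to 1.43 TPM, and endothelial markers to 0.11 to 0.39 TPM with Cdh5 and Kdr at 0.

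Some markers of intestinal regions and cell types differed beside these carriers. Of 5 proximal small intestine markers, summed at 187 and 286 TPM in the controls against 129 and 152 in the mimic libraries, Onecut2 fell by 1.18 on the log2 scale (adjusted p 0.00473) and 4 did not pass. Those 4 did not share a direction, with log2 fold changes from -2.09 for Cybrd1 (adjusted p 0.0634) to 0.69 for Lct (adjusted p 0.187). The exact test called 2 of the 5 proximal markers and DESeq2 called 1. Of 4 distal small intestine markers, summed at 6.21 and 11.3 against 9.62 and 12.0 TPM, none passed in edgeR's quasi-likelihood test. The 3 tested had log2 fold changes from 0.001 to 1.19, 1 had an unadjusted p under 0.05, and DESeq2 called 1. Colon markers summed to 0.41 and 0.11 TPM in the controls against 0.35 and 0.08 in the mimic libraries. Among 7 enterocyte markers Anpep fell by 2.14 on the log2 scale (adjusted p 0.00812). The 6 others did not pass in edgeR's quasi-likelihood test, with log2 fold changes from -0.91 for Fabp1 to 0.16 for Sis. The exact test called 2 of the 7 and DESeq2 called 1, beside 10.4% and 9.21% of all genes. The paper reported Fabp1 as lower with the mimic in its own edgeR analysis of this same RNA-seq, which is not a separate experiment. By qPCR it reported lower Fabp1 and lower intestinal alkaline phosphatase. Alpi, the gene of that phosphatase, had a log2 fold change of -0.71 here (adjusted p 0.408) and did not pass. Among 4 stem cell markers Lgr5 fell by 1.38 on the log2 scale (adjusted p 0.0369). The 3 others did not pass in the quasi-likelihood test, with log2 fold changes of 0.48 for Smoc2, 0.22 for Olfm4 and -0.49 for Ascl2. The exact test and DESeq2 each called 2 of these 4 genes. Of 4 goblet cell markers the quasi-likelihood test called 0, and the exact test and DESeq2 each called 2, beside 10.4% and 9.21% of all genes. Paneth, enteroendocrine and tuft cell markers had 0 calls in each of these tests. The markers of this paragraph were named after their values were seen, and their part in the carriers' values was not tested.

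Finally, the genes whose values over the 4 libraries were most like those of Slc5a8 were sought among 17154 others, by the root mean square difference of log2 normalized CPM around each gene's mean. They are a description of these libraries, and since Slc5a8 was chosen for its rise, such genes are also far apart between the groups. Closest was Slc15a2, which encodes the peptide transporter PEPT2, with a difference of 0.67 and with 3 and 0 counts in the controls against 276 and 284 in the mimic libraries. Next were Cbx3-ps7 (0.72), a processed pseudogene with 0 counts in both controls and 85.9 and 63.7 with the mimic, and Col4a1 (1.10), a basement membrane collagen gene with 6 and 4 counts against 97 and 101. Gm6565 (1.13), another processed pseudogene, had 0 counts in both controls and 12.1 and 42.1 with the mimic. Gm44170 (1.14), an antisense transcript, had 0 in both controls and 41.5 and 26.1 with the mimic. The counts of both pseudogenes and of Gm44170 were not whole, since RSEM divides reads that fit several genes, and are uncertain. Slc5a8 and Gm6565 had more in mimic replicate 4 than in replicate 3 by over 2-fold, and the other 4 did not.

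**Figure D5:**
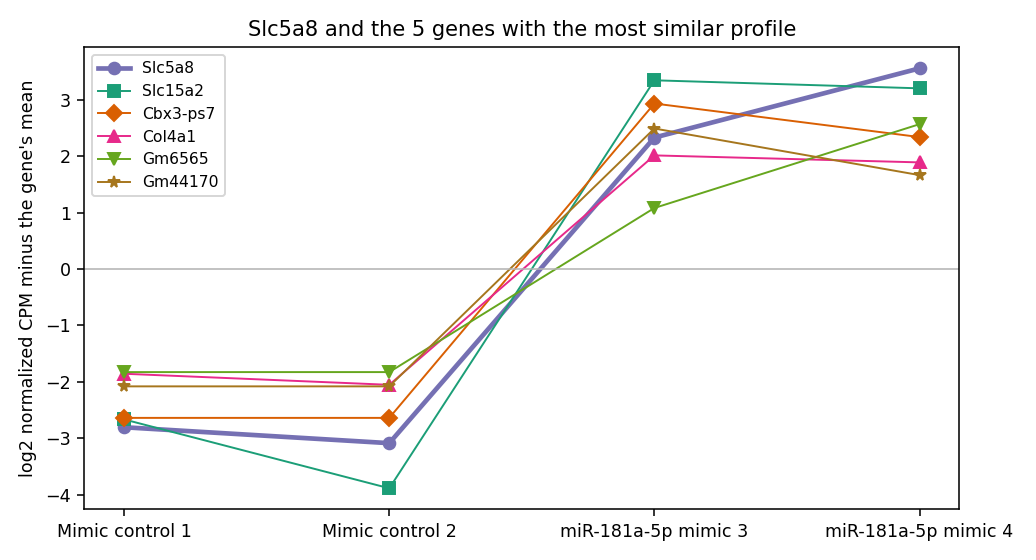
Log2 normalized CPM minus the gene's mean over the 4 libraries, for Slc5a8 (thick line) and the 5 genes most like it. All 6 genes lie below 0 in both mimic control libraries and above 0 in both miR-181a-5p mimic libraries, and Slc5a8 runs from -3.09 to 3.56.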

How the data were processed

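Reads (single, 100 cycles) were trimmed by the authors with Trimmomatic and quantified with RSEM on GRCm38. They deposited, for each gene, the expected count without normalization and the TPM, scaled to the same total in each library. The labels describe poly(A) selection and the supplemental methods ribosomal RNA depletion, and the annotation release and strand setting are not given in the sources used here. In each table, 3 further columns matched no sample and were not used.

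Here the deposited expected counts were rounded and analysed in R 4.3.3 by edgeR, version 4.0.16 (filterByExpr for low counts, TMM, estimateDisp, glmQLFit in its newer form, glmQLFTest, no covariates, all 4 libraries), with Benjamini-Hochberg adjustment over 17155 genes and a threshold of 0.05. Levels between genes were compared in TPM. Intervals are 95%. In simulated counts at this design, 91% of 100 genes changed by 1 on the log2 scale and 100% of 100 changed by 2 were recovered over 16842 genes, and 9 of 200 calls were on unchanged genes. The simulation gave every gene the same dispersion and changed only genes of higher counts. Its shares therefore do not apply to genes of few counts such as Slc16a7, Slc5a12 and Emb, or to genes that vary more. Alternatives were edgeR's exact test, the legacy quasi-likelihood form, DESeq2 1.42.0, RLE factors or none, other filters, limma 3.58.1 on log2(TPM + 1) and log2(TPM + 0.1), and leaving out each library. The 10 genes, the lists and the markers were chosen with earlier results of these data known. Some genes of the related and marker lists are not reported here and are in no count over those lists. Named were the 10 genes, every called gene of the related lists and the 5 genes most like Slc5a8. Also named were Gm11695 for its position, the receptor genes with too few counts to be tested, and genes of the marker lists. Any other gene is said to be chosen after its values were seen. Coordinates and transcripts are from GENCODE M21, and the miRNA and promoters from RefSeq GRCm38.p6. Plots were drawn with matplotlib 3.10.9.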

Additional observations from a re-analysis of the deposited data

How the results depend on the processing

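Counts of called genes changed with the test. Of the 9 genes besides Slc5a8, those called higher were 1 in the main test, 2 in edgeR's exact test and 0 with at least 10 counts in every library and in each of the 3 limma fits on TPM. Those called lower were 1 in the main test and 0 with the legacy form, RLE factors, library totals, no filter and each limma fit. Leaving out 1 library gave 1 to 3 higher (3 without control replicate 2) and 0 to 2 lower (0 without mimic replicate 3, 2 without mimic replicate 4). Related genes called higher were 5 in the exact test, 4 in DESeq2, 0 without a filter and 0 in each limma fit, and from 1 to 8 when a library was left out (8 without control replicate 2). Related genes called lower were 1 in the main test, 3 in the exact test, 3 in DESeq2, 2 with at least 10 counts in every library, 0 without a filter and 0 in each limma fit, and from 1 to 2 when a library was left out (2 without control replicate 1 and without control replicate 2). Over all genes, 761 higher and 1027 lower were called by the exact test, 646 and 653 by DESeq2, and 67 and 125 without a filter. The limma fits gave 32 and 43 on log2(TPM + 1), 11 and 16 on log2(TPM + 0.1), and 2 and 0 without a filter. Leaving out a library gave 159 to 1152 higher and 214 to 1213 lower, with both maxima without control replicate 2 and the fewest lower genes without mimic replicate 3. The cause was not tested.

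Of 131 values of single genes under the alternatives, 109 kept direction and side of the threshold or moved within the spread, 9 lost the threshold, 5 passed it only there, 4 (all of Slc5a8) moved further and 4 reversed. Without control replicate 1, 4 log2 fold changes changed sign. Leaving out each library in turn, the log2 fold change ran from -0.020 to 0.29 for Slc16a1, from -0.040 to 0.91 for Slc16a3, from -0.19 to 0.49 for Slc16a5 and from -1.29 to 0.47 for Emb. None of these 4 genes had passed the test. A group left with 1 library was assumed to vary like the other group. No paired analysis was possible because the groups share no replicate number. The alternative in the legacy form was added after the data were seen. With so few counts in the controls, sizes for Slc5a8 and Slc16a7 are loosely bounded.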
